A study of Mus musculus with 16 samples.

Results

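The collagen genes were followed in chromatin immunoprecipitation (ChIP-seq) peak lists of RNA polymerase II (Pol II) and of monoubiquitylated histone H2B (H2Bub1). Members were all autosomal protein-coding genes of the GENCODE M21 annotation named Col, a number, a and a number, which gave 42 genes of 20807 autosomal and 21938 protein-coding genes. The X-linked collagen genes were left out by this rule. By the textbook grouping used here there were 11 fibrillar genes, 9 FACIT genes, 6 beaded filament genes, 4 basement membrane genes, 4 transmembrane genes, 3 short chain genes, 2 multiplexin genes, 1 anchoring fibril gene and 2 others. The libraries came from mouse embryonic stem cells (mESCs) and mouse embryonic fibroblasts (MEFs) that were wild type (Atxn7l3+/+, WT) or lacked Atxn7l3 (Atxn7l3-/-, KO). ATXN7L3 is an adaptor protein without which a set of deubiquitinases, USP22 among them, cannot remove ubiquitin from H2B. Both cell types came from heterozygous intercrosses on a DBA/2 x C57BL/6 background. The mESCs were derived from blastocysts and kept with serum, LIF and the inhibitors PD0325901 (1 uM) and CH99021 (3 uM), after early passages on feeder cells, and the MEFs were cultured from E10.5 embryos without head and gut. The null allele was made by crosses to recombinase deleter strains and is carried by all KO cells, and the study calls the KO fibroblasts MEF-like and describes their shape as unusual. Of 16 labelled samples, the 8 with a Pol II or H2Bub1 peak list were analysed, 1 library per group, so that no spread between replicates can be given and no difference has a test.

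Collagens are secreted proteins whose chains wind into a rope-like helix. The fibrillar types I, II, III, V and XI form the fibrils of skin, bone and cartilage, with types I and III made by fibroblasts and type II by cartilage cells. Type IV forms the network of basement membranes, type VI forms beaded filaments near cells, and the FACIT collagens sit on the surface of fibrils. H2Bub1 is placed on gene bodies behind transcribing Pol II and is removed by the proteases that ATXN7L3 serves. The collagen genes are long, with a median record of 111 kb against 17.6 kb for all autosomal protein-coding genes, and 90.1% of autosomal genes are shorter than the median member.

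The Pol II lists held 17074 (mESC WT), 11963 (mESC KO), 45870 (MEF WT) and 32232 (MEF KO) peaks, and the H2Bub1 lists 40979, 48952, 19725 and 28856 in the same order. Of 8 pluripotency markers, 7 had a Pol II promoter peak in each mESC list, against 1 in WT and 2 in KO MEFs. Of 10 fibroblast markers that are not collagens, 9 had one in WT MEFs and 8 in KO MEFs, against 1 in each mESC list, and in 6 the fold was lower in KO MEFs by at least 1.5 times. Of 4 mesothelial markers, none had a promoter peak in WT MEFs and all 4 had one in KO MEFs, with folds of 10.2 to 38.6, and H2Bub1 was likewise in 0 and 4 of them. Epithelial markers had no promoter peak in either MEF list (0 of 6), and the endothelial, haematopoietic, muscle and neural lists had 1, 2, 0 and 2 promoters called in WT MEFs and 1, 3, 0 and 2 in KO MEFs. Of 183 Y-linked promoters, 4 had a peak in WT MEFs and 0 in the other lists. The part of these differences in the results on MEFs below was not tested. Atxn7l3 itself had promoter folds of 3.61 and 3.71 in WT and KO mESCs, and 20.9 and 23.4 in the MEF pair, but its promoter lies outside the targeted exons and does not check the labels. Across exons 2 to 12 of its 13-exon models, H2Bub1 peaks covered 100% and 13.0% of the stretch in WT and KO mESCs, and 21.6% and 19.6% in the MEF pair. Its 12-exon models gave 100%, 48.8%, 4.96% and 52.4% in the same order, and the whole record 100%, 62.5%, 22.0% and 65.3%. Pol II peaks of the KO lists covered 11.9% (mESC) and 10.9% (MEF) of the stretch in the 13-exon models and 41.7% and 44.2% in the 12-exon models. Peaks of the KO lists thus lie inside exons 2 to 12 by either numbering. Which model the numbering follows is not given in the sources used here, so these values do not settle how far the deletion reaches. The widest part of the gene record free of peaks in all 4 KO lists was 2.26 kb (chr11:102292275-102294531), of which H2Bub1 covered 100% in WT mESCs and 6.82% in WT MEFs and Pol II 12.4% and 3.63%. KO names the libraries labelled Atxn7l3-/- throughout.

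The promoters that the results turn on are printed from the RefSeq windows of GRCm38.p6, 250 bases before to 50 after each start, which were at hand for 33 of the 42 members. Capitals mark exact matches on either strand to the core of a promoter element. These are the TATA box, searched as TATAAA. The CCAAT box was searched by the letters of its name. The GC box, to which SP1 binds, was searched as GGGCGG. Col4a1 and Col4a2 are shown because they share 1 promoter, Col4a4 because it belongs to the other divergent pair of collagen genes, Col1a2 as a type I collagen gene, and Col6a3 and Col11a1 because they had the highest Pol II folds among promoters called in WT MEFs only.
Col4a1, chr8:11312777-11313076, minus strand: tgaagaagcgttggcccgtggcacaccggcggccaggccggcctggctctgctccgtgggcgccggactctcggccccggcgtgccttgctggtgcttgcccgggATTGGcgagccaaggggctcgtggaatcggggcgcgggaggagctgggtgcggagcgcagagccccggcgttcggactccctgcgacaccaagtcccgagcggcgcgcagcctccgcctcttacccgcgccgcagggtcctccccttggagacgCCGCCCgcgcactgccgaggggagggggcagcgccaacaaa
Col4a2, chr8:11312555-11312854, plus strand: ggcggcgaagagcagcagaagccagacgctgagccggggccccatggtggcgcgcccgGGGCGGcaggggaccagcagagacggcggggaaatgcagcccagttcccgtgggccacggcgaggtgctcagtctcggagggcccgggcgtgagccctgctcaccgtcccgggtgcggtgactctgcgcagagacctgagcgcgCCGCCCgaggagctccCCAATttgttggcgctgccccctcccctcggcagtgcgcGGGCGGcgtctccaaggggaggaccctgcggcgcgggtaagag
Col4a4, chr1:82586800-82587099, minus strand: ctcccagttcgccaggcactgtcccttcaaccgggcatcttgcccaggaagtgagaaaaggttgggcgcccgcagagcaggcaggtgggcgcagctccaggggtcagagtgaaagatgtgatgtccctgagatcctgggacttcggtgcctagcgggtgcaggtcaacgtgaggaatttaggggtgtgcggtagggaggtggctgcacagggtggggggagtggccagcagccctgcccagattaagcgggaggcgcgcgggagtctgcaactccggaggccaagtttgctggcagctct
Col1a2, chr6:4505368-4505667, plus strand: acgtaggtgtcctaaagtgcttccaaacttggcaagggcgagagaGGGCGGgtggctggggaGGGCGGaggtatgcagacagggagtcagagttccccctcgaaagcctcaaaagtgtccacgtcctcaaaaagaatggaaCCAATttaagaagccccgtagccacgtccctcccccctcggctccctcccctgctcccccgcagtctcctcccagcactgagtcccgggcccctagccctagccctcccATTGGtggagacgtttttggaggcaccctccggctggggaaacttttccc
Col6a3, chr1:90843922-90844221, minus strand: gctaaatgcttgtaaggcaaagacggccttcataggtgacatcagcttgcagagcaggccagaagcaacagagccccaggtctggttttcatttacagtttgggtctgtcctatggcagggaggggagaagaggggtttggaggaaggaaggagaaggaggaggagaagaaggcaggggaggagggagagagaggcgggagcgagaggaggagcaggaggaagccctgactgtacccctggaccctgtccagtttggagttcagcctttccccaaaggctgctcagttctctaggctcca
Col11a1, chr3:114030290-114030589, plus strand: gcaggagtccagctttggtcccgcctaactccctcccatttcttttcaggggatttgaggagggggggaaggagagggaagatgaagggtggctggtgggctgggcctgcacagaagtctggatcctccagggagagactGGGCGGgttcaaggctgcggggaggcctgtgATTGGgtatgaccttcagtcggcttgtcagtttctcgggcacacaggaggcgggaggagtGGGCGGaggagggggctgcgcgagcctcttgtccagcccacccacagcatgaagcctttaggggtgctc

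The starts of Col4a1 and Col4a2 lie 21 bp apart, so that their windows share bases read from opposite strands. In its window Col4a2 had 3 GC boxes and 1 CCAAT box, and Col4a1 had 1 of each. The GC box of Col4a1 is 1 of the 3 of Col4a2, read from the other strand, and is counted for both genes. Col1a2 had 2 GC boxes and 2 CCAAT boxes, Col11a1 had 2 GC boxes and 1 CCAAT box, and Col4a4 and Col6a3 had no match. The RefSeq start of Col1a2 lies 804 bp downstream of the GENCODE start, and its Pol II summits lay 144 bp (WT MEFs) and 108 bp (KO MEFs) downstream of the RefSeq start. Among the 33 members a GC box was found in 20 (60.6%), a CCAAT box in 11 (33.3%) and a TATA box in 5 (15.2%). Among all 31396 autosomal windows of the table the shares were 36.0%, 37.3% and 13.6%. The median GC content was 60.0% for the members and 53.0% for all windows. Each member counts once here, by the window nearest its GENCODE start, while the background counts every window. The 31396 windows outnumber the 20807 autosomal protein-coding genes, so the 2 sets are not alike. A match says only that these letters are present.

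To see in which cells Pol II sits at collagen promoters, peaks within 1000 bp of the start of each gene record were counted. In WT MEFs 25 of 42 members had such a peak, and in WT mESCs 8 of 42 did. Over all autosomal genes the shares were 55.3% in WT MEFs and 35.3% in WT mESCs. Of the 25 members with a WT peak in either cell type, 17 had it in MEFs only, against 38.3% of all such autosomal genes, and no member had it in mESCs only. In KO cells 15 members had a promoter peak in MEFs and 2 in mESCs, against 52.3% and 32.1% of all autosomal genes. Of the 16 members with a KO peak, 14 had it in MEFs only, against a background of 40.6%. Col11a2, the alpha 2 chain of type XI collagen, was the single member (2.38%) with a peak in all 4 lists, against 26.1% of all autosomal genes. The nearest start of another coding gene, Rxrb, lies 7625 bp away, and 1 other gene lies within 5000 bp of its record. Col18a1, which encodes the basement membrane collagen that endostatin is cut from, had a peak in 3 lists.

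**Figure D1:**
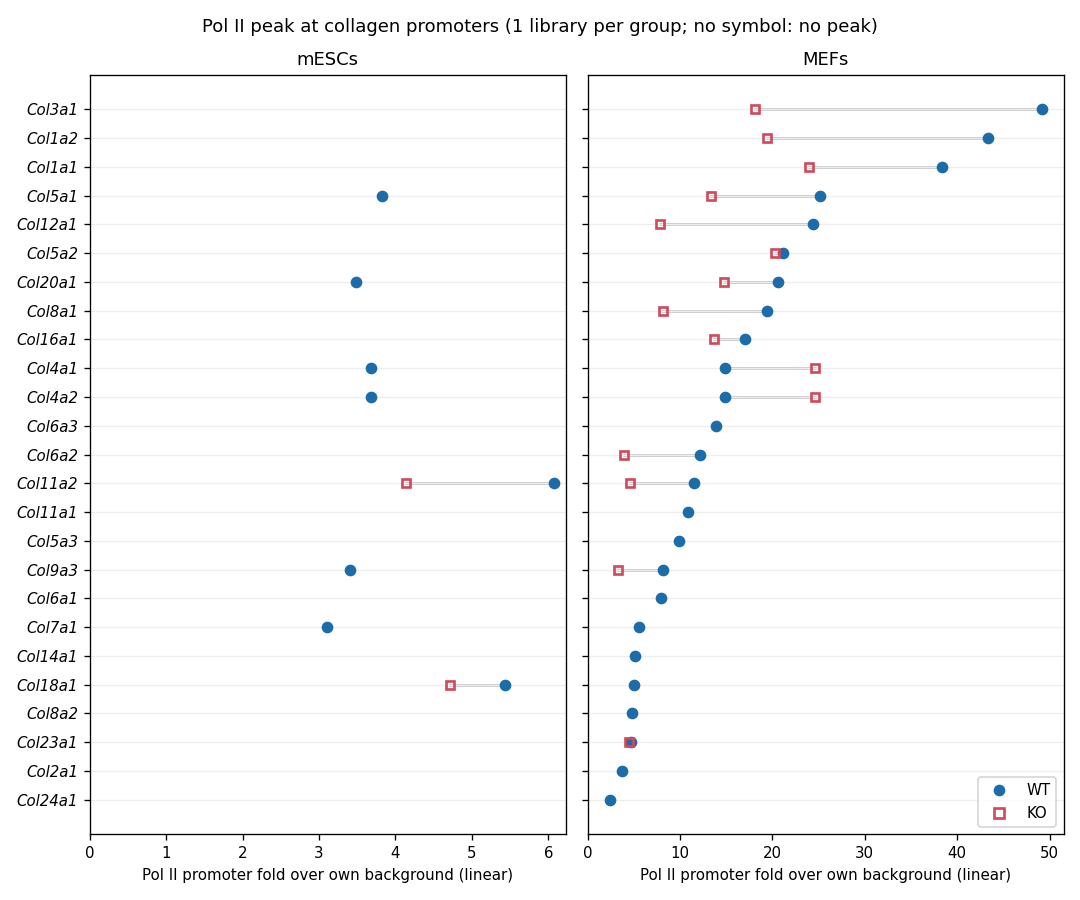
Pol II promoter fold (x axis, linear, each library over its own background) of the 25 collagen genes with a promoter peak in at least 1 list, in mESCs (left) and MEFs (right), with WT as filled circles, KO as open squares and no symbol where no peak was called. In MEFs the open squares lie left of the filled circles except at Col4a1 and Col4a2, and 10 genes have a filled circle alone; in mESCs 6 genes have a filled circle alone.

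Comparing KO with WT asks what happens at collagen genes when the adaptor is missing. In MEFs, 10 of the 25 promoters with a WT peak had none in KO, against 8.01% of all autosomal promoters, and 0 of the 17 without a WT peak had one in KO, against 3.37%. Low folds were called in 1 list only more often in general. Of promoters with a WT fold below the autosomal median, 15.3% were called in WT only, and 9 of the 13 such collagen promoters were. Of the 15 members with a peak in both MEF lists, 9 had a KO fold lower by at least 1.5 times and 2 had a higher one, against 23.9% and 5.76% of all autosomal promoters. The 2 higher ones were Col4a1 and Col4a2 and are 1 shared peak. On the log2 scale the KO over WT ratio had a median of -0.92 over these 15 members and of -0.22 over all 10576 autosomal promoters with both peaks. Relative to that shift, 8 members were lower by 1.5 times and 2 were higher. The autosomal shares relative to the shift were not computed, so these 2 counts have no background. The KO list was also the shorter list.

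The type I and III genes held some of the highest Pol II folds of the WT MEF list. Col3a1, the chain of type III collagen found in skin and vessels, had a promoter fold of 49.2 in WT and 18.1 in KO MEFs and no peak in either mESC list. It ranked 3 of 11497 autosomal promoters with a peak in WT MEFs, and 1952 of 10890 in the KO list. Col1a2, the alpha 2 chain of type I collagen, had a fold of 43.3 in WT (rank 16) and 19.4 in KO MEFs (rank 1564). Col1a1, the alpha 1 chain, had a fold of 38.3 in WT (rank 60) and 23.9 in KO MEFs (rank 699). Neither type I gene had a promoter peak in mESCs. The KO fold was thus lower than the WT fold by 2.71 times at Col3a1, 2.23 times at Col1a2 and 1.61 times at Col1a1, and all 3 had a peak in KO MEFs.

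Pol II over the bodies of these genes differed in how much was left in KO MEFs. Body shares were taken from 1000 bp downstream of the start to the gene end. At Col3a1 Pol II peaks covered 79.3% of the body in WT and 14.7% in KO MEFs. At Col1a2 they covered 97.8% and 76.1%. At Col1a1 a single peak spanned the whole 16.8 kb gene in both lists, 27.4 kb wide in WT and 24.3 kb in KO, so the share was 100% in both. Within the type I pair the body of Col1a2 therefore had fewer covered bases in KO and that of Col1a1 did not, at this way of measuring.

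Type V collagen starts and limits the width of type I fibrils. Col5a1 had a promoter fold of 25.1 in WT MEFs, 13.3 in KO MEFs and 3.83 in WT mESCs, with no peak in KO mESCs. Over its 153 kb record Pol II covered 97.2% of the body in the WT and 1.53% in the KO MEF list, the largest difference of the 42 members (95.7 points lower). Col5a2 had nearly equal promoter folds, 21.1 in WT and 20.3 in KO MEFs, and no peak in mESCs, while its body share was 61.9% in WT and 8.52% in KO. Col5a3 had a promoter fold of 9.86 in WT MEFs alone, and Pol II covered 1.65% of its body there and none in the other lists. The nearest KO peak lay 53.5 kb from the Col5a3 start.

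Of the cartilage-type fibrillar genes, Col11a2 alone had a promoter peak outside WT MEFs. Col11a1 had a peak in WT MEFs only, with a fold of 10.9 and a summit 1252 bp downstream of its start, and the nearest KO peak lay 399 kb away. Col11a2 had mESC folds of 6.08 (WT) and 4.14 (KO) and MEF folds of 11.5 and 4.57. Its WT mESC fold was the highest of the members there and ranked 1534 of 7336 autosomal promoters with a peak. Col2a1, the main cartilage collagen, had a fold of 3.67 in WT MEFs only. Col24a1 had a fold of 2.46 in WT MEFs only, and 0.331% of autosomal promoters with a peak there had a lower one. This Col24a1 call was lost with the paired lists cut to 1 length and in the narrow promoter window. Col27a1 had no promoter peak in any list, but Pol II covered 2.00% of its body in WT and 0.615% in KO MEFs, and the start of its protein-coding transcript, which differs from that of the record, had a peak in both. All 11 fibrillar genes had some Pol II over the body in WT MEFs, 7 did in KO MEFs, 4 in WT mESCs and none in KO mESCs, where the autosomal shares are 42.2%, 33.9%, 20.9% and 13.6%. These counts include bases of peaks centred elsewhere, and the summit lay outside the body at Col11a2 (both MEF lists), Col24a1 (WT), Col5a1 (KO) and Col1a1 (both). Of 4 chondrocyte markers 2 had a promoter peak in each MEF list and both were lower in KO by at least 1.5 times, which moved together with these genes and whose part was not tested.

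**Figure D2:**
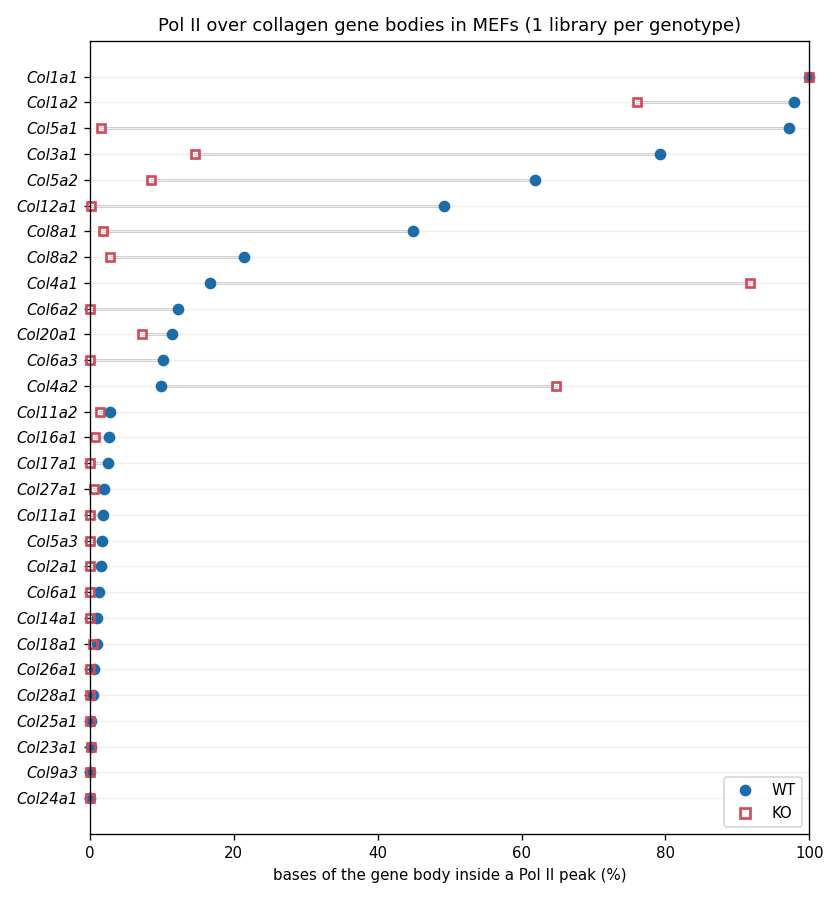
Percent of gene body bases inside a Pol II peak (x axis) in WT (filled circles) and KO (open squares) MEFs for the 29 collagen genes with any such base, ordered by the WT value. Col5a1 spans from 97.2% to 1.53%, while Col4a1 and Col4a2 lie in the opposite order, at 16.7% and 9.85% in WT and 91.8% and 64.8% in KO.

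Across the members Pol II lay over the body of 29 (WT) and 16 (KO) in MEFs, and over 11 in WT and 3 in KO mESCs. The shares of all autosomal genes were 42.2% and 33.9% in MEFs and 20.9% and 13.6% in mESCs. In MEFs the covered share was lower in KO at 25 of the 29 members with any, which is close to the 76.2% of all autosomal genes. In mESCs it was lower in KO at 11 of 12, against 77.4%, and every one of these shares was at most 2.70%. The median share over the 29 members was 2.73% (WT) and 0.250% (KO) in MEFs, and over all autosomal genes with any it was 5.03% and 1.96%. The 7 highest WT shares in MEFs lay between 44.9% and 100%, and 5 of these genes (Col3a1, Col5a1, Col5a2, Col8a1 and Col12a1) had 0.250% to 14.7% in KO. The exceptions to the direction in MEFs were Col1a1, Col23a1, Col4a1 and Col4a2.

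The FACIT collagens bind to fibril surfaces and were split. Col12a1, which lies along type I fibrils in tendon and dermis, had a promoter fold of 24.4 in WT and 7.79 in KO MEFs and none in mESCs. Its body held 77 Pol II peaks over 49.3% of bases in WT and 1 peak over 0.250% in KO. Col16a1 had folds of 17.0 in WT and 13.7 in KO MEFs, and Col20a1 20.6 and 14.7 with 3.48 in WT mESCs alone. Col14a1 had a fold of 5.08 in WT MEFs only, with the nearest KO peak 195 kb away. Col9a3, a type IX chain of cartilage whose record overlaps Tcfl5, had folds of 8.17 in WT and 3.30 in KO MEFs and 3.40 in WT mESCs alone. Col9a1, Col9a2, Col19a1 and Col22a1 had no promoter peak in any list.

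Type VI collagen is assembled from chains that include those of Col6a1, Col6a2 and Col6a3, and these had Pol II at the promoter in MEFs. Col6a3 had a fold of 13.9 in WT MEFs and no peak in KO, where the nearest peak lay 131 kb from its start. Col6a1 had a fold of 7.93 in WT MEFs and no peak in KO. Col6a2, on the same chromosome 102538 bp away, had a fold of 12.2 in WT and 3.92 in KO. No body of the 6 beaded filament genes held Pol II in KO MEFs, against 3 in WT, where the share was 12.3% at Col6a2 and 10.2% at Col6a3. The autosomal shares are 42.2% (WT) and 33.9% (KO). None of the 6 had a promoter peak in mESCs, where the autosomal shares are 35.3% and 32.1%. Col6a4, Col6a5 and Col6a6 had neither Pol II nor H2Bub1 in any list.

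The short chain gene Col8a1, a type VIII chain of vessel walls and of the cornea, had a promoter fold of 19.4 in WT and 8.16 in KO MEFs. Its body held 70 Pol II peaks over 44.9% of bases in WT and 3 over 1.80% in KO. Col8a2, the partner chain, had a fold of 4.82 at the start of its record in WT only, and Pol II covered 21.4% of its body in WT and 2.86% in KO. At another transcript start of Col8a2 both genotypes had a peak. Col7a1, the anchoring fibril collagen of skin, had a fold of 5.60 in WT MEFs and of 3.11 in WT mESCs and none in KO, with a KO MEF peak 2.01 kb from the start. Col18a1 had a fold of 5.03 in WT MEFs and none in KO MEFs, while both mESC lists had it, at 5.44 in WT and 4.71 in KO. The transmembrane gene Col23a1 was nearly level, at 4.72 in WT and 4.50 in KO MEFs, and Col13a1, Col17a1 and Col25a1 had no promoter peak.

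The basement membrane genes went the other way. Col4a1 and Col4a2, which encode the main type IV chains, are transcribed away from their shared promoter, and every Pol II peak there covered both starts. The peak had a fold of 3.68 in WT mESCs, was not called in KO mESCs, and had a fold of 14.9 in WT and 24.6 in KO MEFs, higher by 1.65 times. In KO MEFs it ranked 609 of 10890 promoters and in WT MEFs 4753 of 11497. Its width was 4.61 kb in WT and 6.37 kb in KO MEFs, and the extra bases lay on the Col4a2 side, where it ran 3.02 kb and 4.79 kb into the gene, while its edges on the Col4a1 side lay 1 bp apart. Pol II covered 16.7% of the Col4a1 body in WT and 91.8% in KO MEFs, and 9.85% and 64.8% of the Col4a2 body. Among peaks with their summit inside the body the highest fold was 5.70 in WT and 7.73 in KO at Col4a1 and 4.93 and 8.16 at Col4a2. With the pair counted once, the promoters higher in KO by 1.5 times number 1. All 4 mesothelial markers were called in KO MEFs and none in WT, and their part in the values of this pair was not tested. The starts of Col4a4 and Col4a3, the other divergent pair, lie 72 bp apart, and no list held Pol II or H2Bub1 at either gene, so 1 of the 2 pairs accounts for all type IV values.

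In mESCs 6 of the 8 promoters with a WT peak had none in KO, against 22.8% of all autosomal promoters, and 0 of 34 went the other way, against 7.49%. The 6 were Col20a1, Col4a1, Col4a2, Col5a1, Col7a1 and Col9a3, with WT folds of 3.11 to 3.83, below the median of 4.39 for all autosomal promoters with a peak. Of the autosomal promoters below that median, 38.2% were called in WT only. Under other settings some of these calls end, at Col7a1 under 3 of 7, at Col9a3 under 2 and at Col20a1 under 1. Col4a1 and Col4a2 are 1 shared peak, and with divergent pairs counted once 5 of 7 promoters had none in KO. The WT list was also the longer list, and with the paired lists cut to 1 length it was 4 of 6. The 2 with peaks in both were Col11a2 and Col18a1, with KO folds 1.47 and 1.15 times lower. At the 6 promoters called in WT only, 10.6% to 33.1% of autosomal promoters with a WT peak had a lower fold.

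H2Bub1 was measured as the percent of bases of the gene record inside a broad peak. In MEFs 9 members (21.4%) had H2Bub1 in WT and 15 (35.7%) in KO, against 31.7% and 54.3% of all autosomal genes. Of the 33 without it in WT, 6 had it in KO (Col16a1, Col23a1, Col27a1, Col6a1, Col6a2 and Col8a1), against 33.5% of all autosomal genes. At Col23a1 it was the last 0.341 kb of a 294 kb record, a share of 0.116%, with another gene within 5000 bp. In turn 0 of 9 had it in WT only, against 0.926%. The share was higher in KO at 12 of the 15, against 98.7% of autosomal genes. Over these 15 the median share was 0.876% (WT) and 15.7% (KO), while over all autosomal genes with H2Bub1 in either MEF list it was 2.47% and 50.9%. With only peaks of -log10 q 3 or more, 3 members in WT and 12 in KO MEFs had H2Bub1. With at least 10% of the gene covered it was 2 and 10. Autosomal shares at these settings were not computed.

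Col4a1 and Col4a2 had the largest differences in the whole-gene H2Bub1 share in MEFs. Col4a2 was covered over 0.876% in WT and 65.2% in KO MEFs, and Col4a1 over 4.59% and 58.5%. A single KO peak of 135 kb with a fold of 3.96 spanned the shared promoter, reaching 66.1 kb into Col4a1 and 69.2 kb into Col4a2. In mESCs both genes had low shares, 2.48% and 2.22% at Col4a1 and 2.03% and 5.41% at Col4a2 in WT and KO.

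Fibrillar genes varied. Col5a2 was covered over 2.25% in WT and 39.4% in KO MEFs, and no list of mESCs had H2Bub1 there. Col1a1 had 60.7% in WT and 54.0% in KO MEFs, and Col5a1 39.9% and 36.6%, so these 2 had the highest WT shares. Their direction turns with the setting, to 20.99 points higher in KO at Col1a1 and 2.72 points higher at Col5a1 with only peaks of -log10 q 3 or more, and to 12.90 and 36.28 points higher in the first 5000 bp. Col1a2 had 7.40% and 18.8%, and Col3a1 0.954% and 15.7%. Col27a1 had none in WT and 3.26% in KO. Col11a1, Col11a2, Col24a1, Col2a1 and Col5a3 had no H2Bub1 in either MEF list.

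The whole-gene share hides where on the gene the mark lay. In KO MEFs, H2Bub1 at Col3a1 ran from the start to 5.98 kb of a 38.2 kb gene, and at Col1a2 to 6.90 kb of 36.7 kb. At Col12a1 it ran from 347 bp downstream of the start to 6.62 kb of 120 kb. At Col6a1 it ran from 156 bp to 3.42 kb of 17.4 kb, and at Col6a3 from 558 bp to 0.968 kb of 78.0 kb. In the first 5000 bp of the gene, 8 members had a share that rounds to 100% in KO MEFs (Col1a1, Col1a2, Col3a1, Col4a1, Col4a2, Col5a1, Col5a2 and Col8a1). The WT shares there were 87.1% at Col1a1, 63.7% at Col5a1, 22.1% at Col5a2, 17.3% at Col1a2, 14.9% at Col4a1, 7.28% at Col3a1 and 0% at Col4a2 and Col8a1. The KO share of this stretch was 93.1% at Col12a1, 91.3% at Col16a1, 68.8% at Col27a1, and 65.3% at both Col6a1 and Col6a2. It was higher in KO than in WT at 13 of the 14 members with H2Bub1 there, Col6a3 being the exception (17.5% and 8.22%). For the members the median of this stretch was 11.1% (WT) and 100% (KO), and it was 0% and 100% for all autosomal genes with H2Bub1 there. Of all these autosomal genes 97.9% had a higher share in KO and 52.7% were covered in full there, as were 7 of the 14 members. In mESCs the median of this stretch was 8.18% (WT) and 17.7% (KO) over 15 members, 10 of them higher in KO, and 26.0% and 71.6% over all autosomal genes, of which 82.4% were higher.

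**Figure D3:**
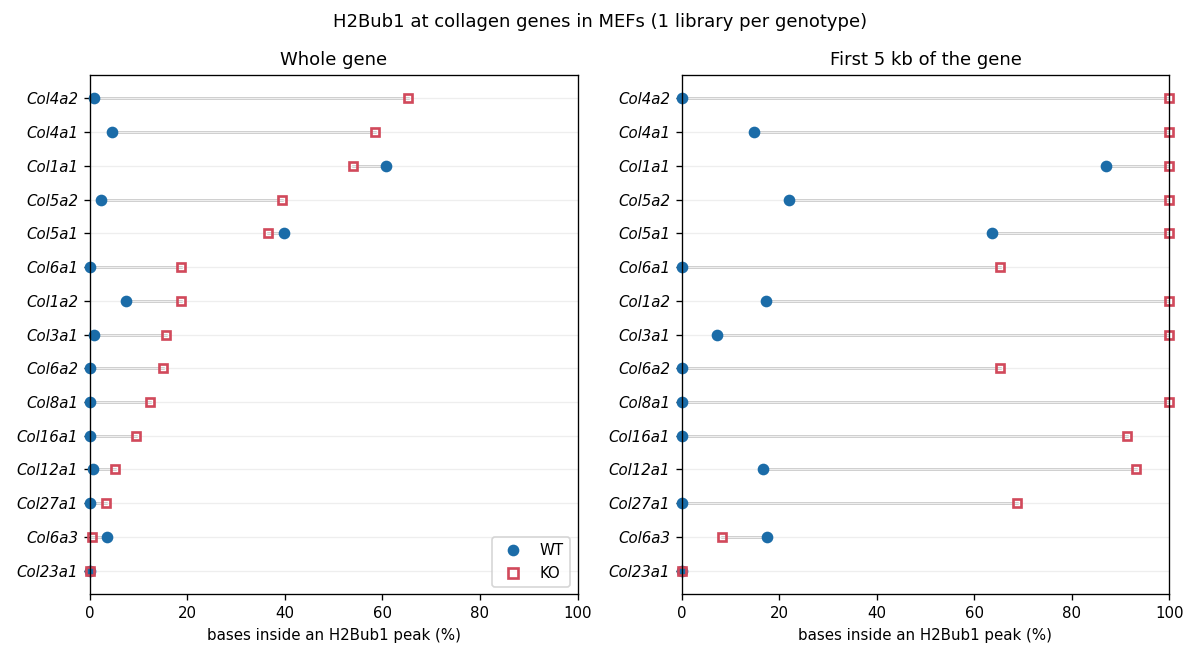
Percent of bases inside an H2Bub1 peak (x axis) in WT (filled circles) and KO (open squares) MEFs for the 15 collagen genes with H2Bub1 in either, over the whole gene (left) and over its first 5 kb (right). Over the whole gene the KO values spread from near 0 to 65.2%, and over the first 5 kb 8 of them sit at 100% after rounding.

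**Figure D4:**
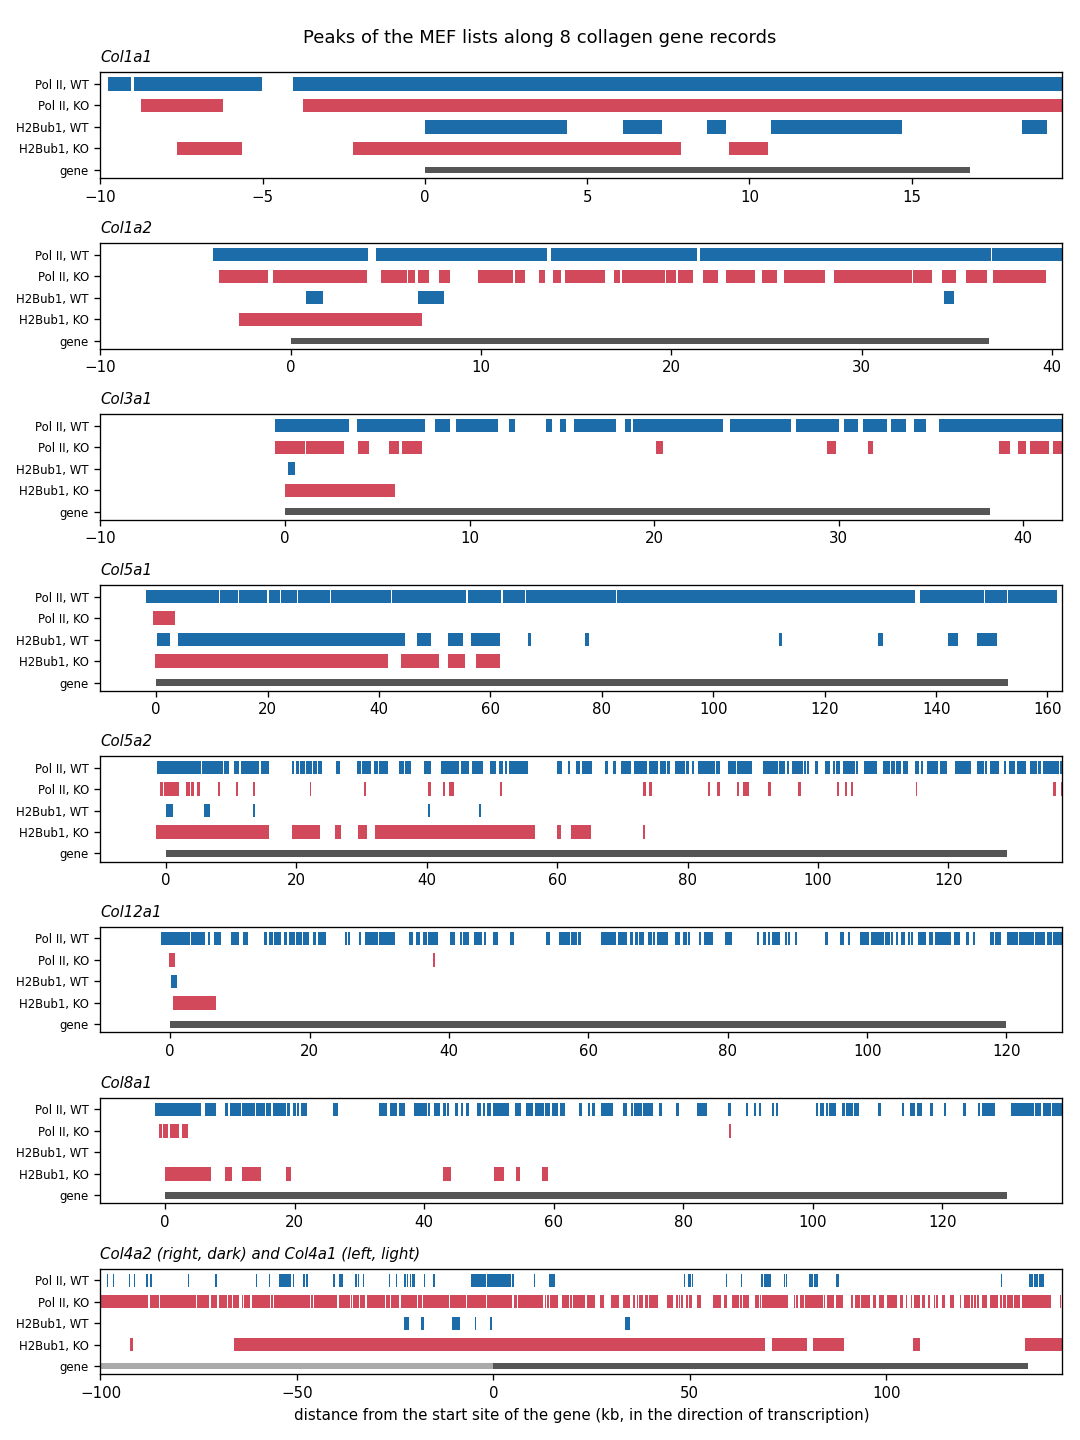
Peaks of the 4 MEF lists along 8 collagen genes, as bars by distance from the start site of the gene (x axis, kb, in the direction of transcription), with WT in blue, KO in red and the gene record in grey. Pol II bars fill the WT row of Col5a1 and the KO row of the Col4a1 and Col4a2 pair, and the H2Bub1 bars of KO MEFs inside Col1a2, Col3a1 and Col12a1 end within 7 kb of the start.

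Setting the 2 marks side by side, 9 of the 25 members with a WT Pol II promoter peak in MEFs had H2Bub1 in WT, against 53.4% of all such autosomal genes. In KO MEFs 12 of 15 members with a promoter peak had H2Bub1, against 93.3%. The share was higher in KO at 10 of the 15 members with a promoter peak in both lists, against 93.3%. The 3 without H2Bub1 in either were Col11a2, Col20a1 and Col9a3. Of the 10 members with a promoter peak in WT only, 8 had no H2Bub1 in either list, against 73.8% of all such autosomal promoters. The other two were Col6a3, with 3.65% in WT and 0.527% in KO, and Col6a1, with 0% and 18.8% and no Pol II promoter peak in KO.

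The directions of the marks did not follow 1 pattern gene by gene. At Col4a1 and Col4a2 both Pol II and H2Bub1 covered more of the gene in KO MEFs. At Col1a2, Col5a2, Col3a1, Col8a1, Col12a1 and Col6a2 the Pol II share of the body was lower by 12.3 to 64.6 points and the H2Bub1 share higher by 4.5 to 37.2 points. With only peaks of -log10 q 3 or more the H2Bub1 difference was 0.00 points at Col8a1 and Col6a2, and the other 4 genes had the same direction. At Col5a1 the Pol II share of the body was lower by 95.7 points and the H2Bub1 share of the whole gene differed by -3.3 points, a direction that turns with the setting. The broad and narrow peaks come from separate libraries, and no test joins them.

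In mESCs 23 members (54.8%) had H2Bub1 in WT and 20 (47.6%) in KO, against 55.7% and 62.1% of all autosomal genes. Of the 19 without it in WT, 1 (Col19a1) had it in KO, against 21.5% of all autosomal genes, and 4 of 23 (Col10a1, Col16a1, Col6a1 and Col6a3) had it in WT only, against 5.62%. The share was higher in KO at 13 of the 24 members with H2Bub1 in either, against 83.1%. For the members the medians were 4.29% (WT) and 4.25% (KO), and 10.2% and 28.8% for all autosomal genes. All 8 members with a WT Pol II promoter peak had H2Bub1 in WT, against 91.9%. With the paired lists cut to 1 length, 8 members had H2Bub1 in WT only. With only peaks of -log10 q 3 or more, 2 had it in WT only and 3 in KO only, so the order of these counts turns with the setting.

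Col18a1 had the highest shares in mESCs, 54.4% in WT and 75.0% in KO, and none in MEFs. With only peaks of -log10 q 3 or more its shares were 0% in WT and 51.7% in KO. Its record overlaps Slc19a1, and the mark cannot be assigned to 1 of them by position alone. Col9a2 had 27.0% and 23.3%, and Col13a1, a transmembrane collagen of the nerve-muscle junction, had 16.7% and 21.3%, both without a Pol II promoter peak. Col6a1 had 14.5% in WT and none in KO mESCs. Col10a1, a collagen of growing cartilage, had 10.3% and none, within a region it shares with Nt5dc1. Col1a1 had 9.45% and 10.4% without a promoter peak, and Col8a2 3.69% and 12.1%. With the broad peaks at -log10 q of at least 3, 2 members in WT and 3 in KO mESCs kept any H2Bub1, so most of these shares rest on peaks below that cut. The same count over all autosomal genes was not made, so whether this loss is particular to the members is not known.

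**Figure D5:**
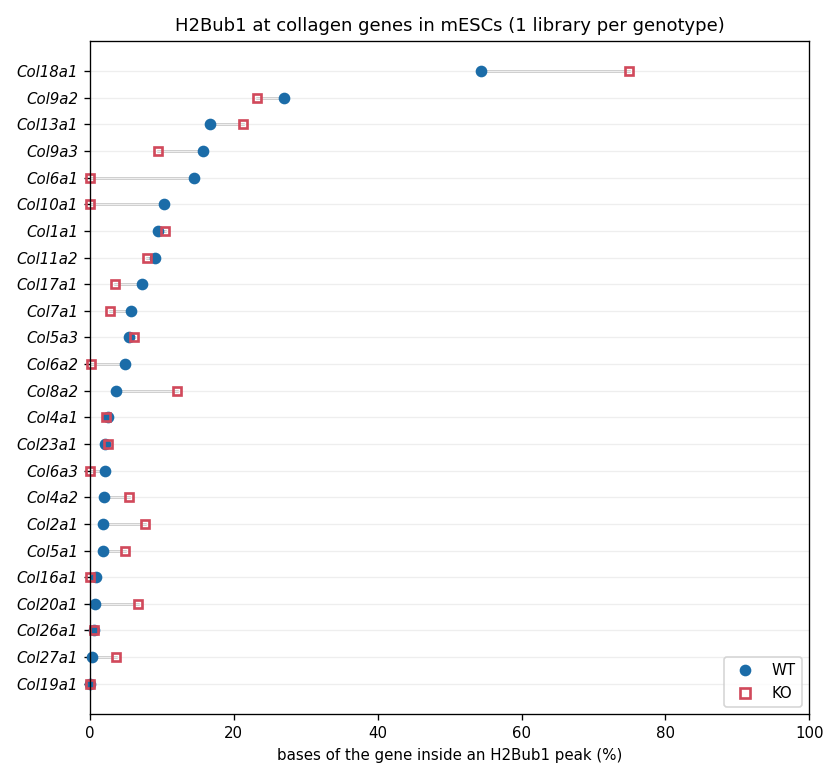
Percent of gene bases inside an H2Bub1 peak (x axis) in WT (filled circles) and KO (open squares) mESCs for the 24 collagen genes with H2Bub1 in either, ordered by the WT value. Col18a1 lies far from the rest at 54.4% and 75.0%, and most others lie below 10%.

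By class, promoter peaks in WT MEFs were found at 10 of 11 fibrillar genes, 5 of 9 FACIT genes, 3 of 6 beaded filament genes, 2 of 3 short chain genes and 2 of 4 basement membrane genes, where the share of all autosomal genes is 55.3%. The fibrillar folds spread widest, from 2.46 to 49.2, with a median of 16.3. In KO MEFs the counts were 6, 4, 1, 1 and 2, where the autosomal share is 52.3%. The 4 fibrillar genes called in WT only were Col11a1, Col24a1, Col2a1 and Col5a3, while both type I genes, Col3a1, Col5a1, Col5a2 and Col11a2 were called in both. Of the 42 members, 17 (40.5%) had no Pol II promoter peak in any list, against 41.1% of all autosomal genes, and 8 (19.0%) had no Pol II over the body and no H2Bub1 either, against 27.2% (Col9a1, Col15a1, Col22a1, Col4a3, Col4a4, Col6a4, Col6a5 and Col6a6).

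The genes that make and receive collagen were set beside the members. Of 31 genes for collagen modification, folding, processing and cross-linking, 29 (WT) and 27 (KO) had a promoter peak in MEFs, and 16 and 13 in mESCs. The autosomal shares in that order are 55.3%, 52.3%, 35.3% and 32.1%. In MEFs Pcolce2, an enhancer of propeptide removal (5.03), and P3h2, a prolyl 3-hydroxylase (3.28), had a fold in WT only. In mESCs P3h1 (3.54), Plod3 (3.28) and P4ha3 (3.87), which hydroxylate proline or lysine, had one in WT only. Of the 27 with peaks in both MEF lists, 10 were lower in KO by 1.5 times and 1 was higher, where the autosomal shares are 23.9% and 5.76%. The higher one was the lysyl hydroxylase gene Plod2 (14.5 in WT and 30.1 in KO), named after its values were seen. H2Bub1 was in 13 of the 31 in WT and 24 in KO MEFs, against 31.7% and 54.3% of all autosomal genes. The share was higher in KO at all 24 with H2Bub1 in either MEF list, where 98.7% of such autosomal genes have it higher. Of 9 receptor genes, 7 had a promoter peak in WT and 6 in KO MEFs. Itga11, the integrin chain that binds fibrillar collagen on fibroblasts, had a fold of 9.33 and Lair1, an inhibitory collagen receptor, 3.74 in WT only, and Itga10 3.04 in KO only.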

How the data were processed

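The authors aligned single-end ChIP-seq reads to mm10 (GRCm38) with Bowtie and called peaks with MACS2, narrow for Pol II (RPB1 antibody) and broad for H2Bub1. The submitters' processing notes name Bowtie 1.0.0, MACS2 2.1.1.20160309 and bcl2fastq 2.17.1.14. Control and thresholds are not given in the sources used here. N-ethylmaleimide was in the buffers to hold ubiquitin in place. The authors scaled H2Bub1 by intergenic size factors and Pol II by mapped reads; how this entered the calls is not stated. Each deposited list comes from 1 library and gives a position, a linear fold ratio over local background, and -log10 values of p and q, read by the column order of the MACS2 peak formats. The deposited score, which restates q, and the summit offset complete the columns, and the score entered no result. Because each fold is relative to its own library's background, ratios give no absolute change. Read depth is unknown, and a deeper library gives more and wider peaks.

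Peaks were set against GENCODE M21 of the same build with at least 1 bp of overlap, using Python 3.11.15, numpy 2.4.6, pandas 2.3.3 and matplotlib 3.10.9. A promoter was 1000 bp either side of the start of the gene record, and a Pol II body ran from there to the gene end, counted by covered bases wherever the peak is centred; body folds and numbers of body peaks use summits inside it. Functions were tested on simulated peaks. The members, gene lists and alternatives were chosen with earlier results of these data known. Promoter folds are given for all members with a Pol II promoter peak in 1 list or more. H2Bub1 shares are given for members with at least 25% in a list, in that cell type. Of the genes that make and receive collagen, those whose promoter call differs between WT and KO are given with their fold. Other values and the marker lists are given in part. Collagen classes are textbook groups. Background percentages are taken over autosomal protein-coding genes, members included. Results were repeated, as far as each choice bears on them, with only peaks of -log10 q 3 or more, with paired lists cut to 1 length, other promoter windows and starts, pairs counted once, summits only, a 10% call, the first 5000 bp, members away from other genes and ratios relative to the median.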

Additional observations from a re-analysis of the deposited data

Results flagged for a closer look

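The shared promoter of Col4a1 and Col4a2 went opposite ways in the 2 cell types. Its Pol II peak (fold 3.68) was in WT only in mESCs, and in MEFs the KO fold was 1.65 times the WT fold for Col4a1 and, being the same peak, 1.65 times for Col4a2. This difference between mESCs and MEFs was not tested, since each group is 1 library.

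H2Bub1 at Col6a1 also went opposite ways, with a covered share KO minus WT of -14.5 points in mESCs and 18.8 points in MEFs. With only peaks of -log10 q 3 or more the mESC value was 0.00 and the MEF value 18.80 points, so the opposite directions were not seen at that setting. This difference was not tested either.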

How the results depend on the processing

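No paired analysis was possible because each group is 1 library. Of 143 counts and medians under the alternatives, 114 stayed and 29 moved. Staying meant within 1.5 times the reported count or inside the order-statistic interval of the reported median. Each value was judged alone, so these labels do not show whether the order of WT and KO turned. In mESCs that order did turn at -log10 q of at least 3, from 23 (WT) and 20 (KO) members with H2Bub1 to 2 and 3. Under the 7 promoter alternatives, promoters in KO only numbered 0 in both cell types and those in WT only 9 to 10 in MEFs, and promoters lower in KO MEFs numbered 8 to 10, relative ratios included. Col24a1 in WT MEFs was not called with equal numbers of peaks or in the narrow window, Col11a1 was not called by its summit, and Col7a1 had a peak in both MEF lists within 5000 bp. In WT mESCs Col7a1 was not called with equal numbers of peaks, in the narrow window or by its summit, Col9a3 not in the first 2 of these, and Col20a1 not in the narrow window. With the window from 100 bp upstream to 300 bp downstream, mESC promoters numbered 5 in WT and 3 in WT only. Counting divergent pairs once left 1 promoter higher in KO MEFs. With equal numbers of peaks, Pol II bodies in WT mESCs numbered 5, H2Bub1 in WT only 8 in mESCs and 1 in MEFs. Limited to the 25 members with no other gene within 5000 bp, which lowers counts by construction, Pol II bodies numbered 6 (WT mESC), 0 (KO mESC), 18 (WT MEF) and 8 (KO MEF), H2Bub1 genes 9 in WT and 8 in KO mESCs with 2 in WT only, and those higher in KO 7. At -log10 q of at least 3, H2Bub1 was left at 2 (WT) and 3 (KO) members in mESCs and 3 in WT MEFs, with 2 in WT only, 3 in KO only and 3 higher in KO in mESCs, and mESC medians of 0% and 0.519%. At a 10% call, H2Bub1 genes numbered 6 and 5 in WT and KO mESCs and 2 in WT MEFs, with 2 in KO only in mESCs. In the first 5000 bp the median was 17.7% in KO mESCs, 11.1% in WT and 100% in KO MEFs.

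The KO minus WT H2Bub1 share changed sign in MEFs at Col1a1 (20.99 points at -log10 q of at least 3 and 12.90 in the first 5000 bp) and at Col5a1 (2.72 and 36.28). In mESCs it did so with equal numbers of peaks at Col26a1 (-0.62), Col5a3 (-5.50), Col23a1 (-0.22) and Col1a1 (-9.45), at -log10 q of at least 3 at Col4a2 (-0.28), and in the first 5000 bp at Col6a2 (1.26) and Col11a2 (2.14). The cause was not tested. The alternatives for 1.5-fold counts, for counts higher in KO and for H2Bub1 at single members were chosen after seeing the data.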
